A study of Mus musculus with 18 samples.

Results

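Glutathione S-transferases (GST) and UDP-glucuronosyltransferases (UGT) were followed across 12 bulk RNA libraries of mouse liver tumours. The set was defined by gene symbol: every protein-coding gene of the cytosolic and mitochondrial GST classes alpha, kappa, mu, omega, pi, theta and zeta, of the microsomal GSTs Mgst1 to Mgst3, and of the UGT1, UGT2 and UGT3 families with at least 10 counts summed over the libraries. This gave 43 genes (24 GST and 19 UGT) of the 55335 genes in the count table. Of 46 genes with a matching symbol, Ugt2a2 with 5 counts, Gstt4 with 4 and Ugt2a1 with 0 were left out, while the lowest members, Gsto2 and Ugt1a8, had 26 and 124 counts. Gsto2 was also the 1 member that the filter on low counts removed, so 42 members were tested among 17013 genes.

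Both enzyme groups carry out the conjugation step of detoxification. A GST joins the thiol of glutathione to an electrophile, such as a reactive drug metabolite or a lipid peroxidation product. A UGT moves a sugar, in most cases glucuronic acid from UDP-glucuronic acid, onto bilirubin, steroids, bile acids or drugs in the endoplasmic reticulum. The products leave the hepatocyte through export pumps, and many of the genes are known to respond to the oxidant sensor NRF2 and to the drug-sensing receptors CAR, PXR and AhR.

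The tumours came from 2 models, each with libraries labelled Prom1 depletion and control (3 libraries per group). In N-Ras+AKT tumours, plasmids for NRasV12 and myristoylated AKT (20 µg each) were delivered with a transposase plasmid (1.6 µg) by hydrodynamic tail vein injection, which brings DNA mainly into hepatocytes. In DEN+CCl4 tumours, DEN (1 mg/kg) was given at 14 days of age and CCl4 (0.2 ml/kg) from 8 weeks of age for 12 to 16 weeks. The groups were N-Ras+AKT Prom1 depletion (replicates 6, 11 and 17), N-Ras+AKT control (3, 10 and 15), DEN+CCl4 Prom1 depletion (6, 9 and 10) and DEN+CCl4 control (7, 8 and 13), and values are given in that order of replicates throughout. In the depletion groups tamoxifen (4 mg doses) activates CreERT2 made from the Prom1 locus, which releases diphtheria toxin A from Rosa26 in cells that express Prom1. The strain label reads Prom1C-L/+;Rosa26DTA/+ for all 12 libraries, but the design text names Prom1+/+;Rosa26DTA/+ littermates as controls and mentions olive oil vehicle, so what the controls lacked is not settled. Tissue was taken 6 days (N-Ras+AKT) or 16 days (DEN+CCl4) after the last dose, so the interval and the tumour model cannot be told apart. The libraries hold whole tumour tissue, in which fewer cells of a type and less RNA per cell cannot be told apart, and nothing in the labels says that replicates are separate animals, so p-values measure the spread between these samples.

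Prom1 itself had 5.81, 16.5 and 2.17 CPM (the count scaled to the effective size of the library after TMM normalization) in N-Ras+AKT depletion libraries, against 45.4, 59.2 and 78.3 CPM in their controls, and 17.4, 39.98 and 35.7 CPM in DEN+CCl4 depletion libraries, against 60.1, 76.7 and 48.9 CPM in their controls. Its log2 fold change was -2.90 in N-Ras+AKT tumours (SE 0.61, adjusted p = 0.00953) and -1.0 in DEN+CCl4 tumours (SE 0.57, adjusted p = 0.381). Libraries held 31306617 to 48055812 counts, of which the 43 transferase genes took 1.46% to 1.64% in N-Ras+AKT depletion libraries, 0.606% to 1.17% in their controls, 0.500% to 0.586% in DEN+CCl4 depletion libraries and 0.581% to 0.685% in their controls. N-Ras+AKT depletion 17 stood apart on the second principal component of log2 CPM (66.5, against 33.0 and 24.8 for the other N-Ras+AKT depletion libraries) and DEN+CCl4 depletion 6 on the third (51.6, against 10.6 and 2.30 for the other DEN+CCl4 depletion libraries), and counts are also given without both. Albumin was between 44421 and 193966 CPM in every library. Xist did not pass 1.41 CPM and the Y-linked Ddx3y was 57.5 to 92.4 CPM in the 12 libraries, the pattern of male tissue in each.

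After depletion in N-Ras+AKT tumours, transferase members rose in every GST class but pi and in all 3 UGT families. Of the 42 members tested, 23 rose at an adjusted p under 0.05 (edgeR quasi-likelihood test, Benjamini-Hochberg adjustment over 17013 genes), which is 54.8% of them against 12.8% of all genes tested (23.7% in either direction). Only Gstm5 and Gstp2 fell, 4.76% of the members against 10.8% of all genes. The median log2 fold change was 0.90 over the members and -0.02 over all genes, and 13 of 19 UGT and 10 of 23 GST members rose. In 29 members all 3 depletion libraries lay above all 3 controls (21.4% of all genes did), and in 2 members all lay below (21.5% of all genes; 43.0% in either direction). The controls were not uniform: replicate 10 was the highest of the 3 controls in 39 of 42 members, and replicate 3 the lowest in 31. Counts of members past the test were 13 without depletion 17, 13 without control 15, 14 without control 3, 28 without control 10 and 15 without both libraries that stood apart. Gstk1, Gstm2, Gstm5, Gsto1, Mgst1, Ugt1a1, Ugt2b34, Ugt2b36, Ugt2b5, Ugt3a1 and Ugt3a2 passed under all 13 alternatives run.

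The same contrast in DEN+CCl4 tumours gave 0 of 42 members past the edgeR test, against 0.370% of all genes (63 genes, 0.112% higher and 0.259% lower). At an unadjusted p under 0.05 there were 20 members, and 3186 of all 17013 genes. Their median log2 fold change was -0.33, against -0.01 over all genes, and 32 of 42 values were negative. In 19 members all depletion libraries lay below all controls, 45.2% against 16.0% of all genes, and in 3 members (Gstk1, Gstm7 and Gstt3) all lay above, 7.14% against 11.5%. In either direction this held for 27.5% of all genes. DESeq2 called 8 members, 6 lower (Gsta1, Gsta4, Gstm1, Gstm3, Gstp2 and Ugt2b38) and 2 higher (Gstm7 and Gstt3), limma-voom called 1 lower (Gstm3), and edgeR called 3 without depletion 10.

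**Figure D1:**
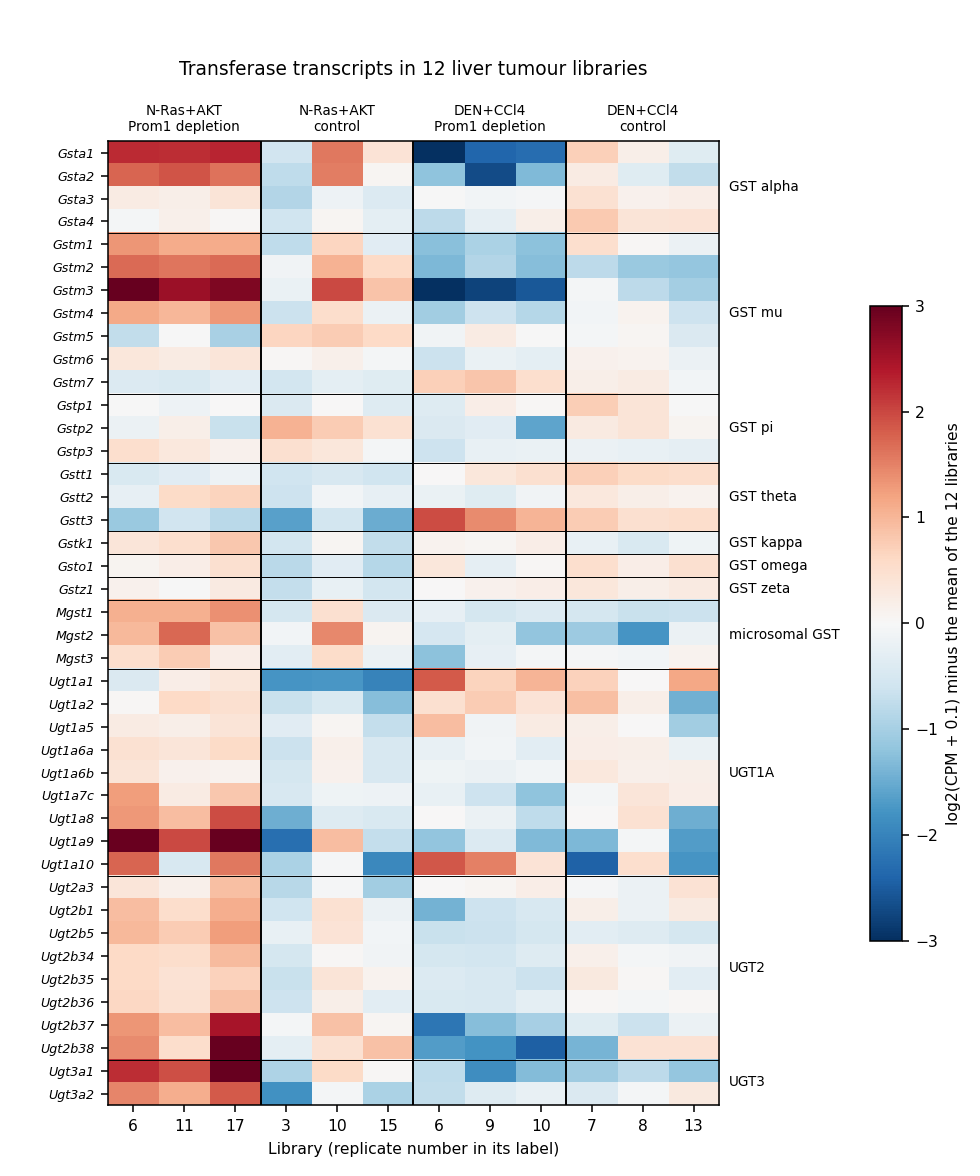
Level of the 42 tested transferase genes (rows, by class) in the 12 libraries (columns, by group), as log2(CPM + 0.1) minus the mean of the 12 libraries; colours end at 3 in either direction. Most rows are warm in the 3 N-Ras+AKT depletion libraries, and N-Ras+AKT control 10 is the warmest of its group in 39 of 42 rows.

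The effect of depletion differed between the models in 24 of 42 members (11.6% of all genes did), with 22 more positive in N-Ras+AKT tumours (52.4% against 7.98% of all genes) and Gstm5 and Gstm7 more negative (4.76% against 3.60%). In 31 members the log2 fold change was positive in N-Ras+AKT and negative in DEN+CCl4 tumours, in 9 it was positive in both, in 1 negative in both, and in 1 negative in N-Ras+AKT and positive in DEN+CCl4 tumours. The count of 24 was 9 without the 2 libraries that stood apart. It was 12 without N-Ras+AKT depletion 17, N-Ras+AKT control 15 or DEN+CCl4 control 7, 14 without DEN+CCl4 depletion 9 or control 8, and 15 without DEN+CCl4 control 13. Gsta1, Gstm1, Gstm3, Gsto1, Ugt1a7c, Ugt2b34, Ugt2b36 and Ugt3a1 passed under all 18 alternatives.

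**Figure D2:**
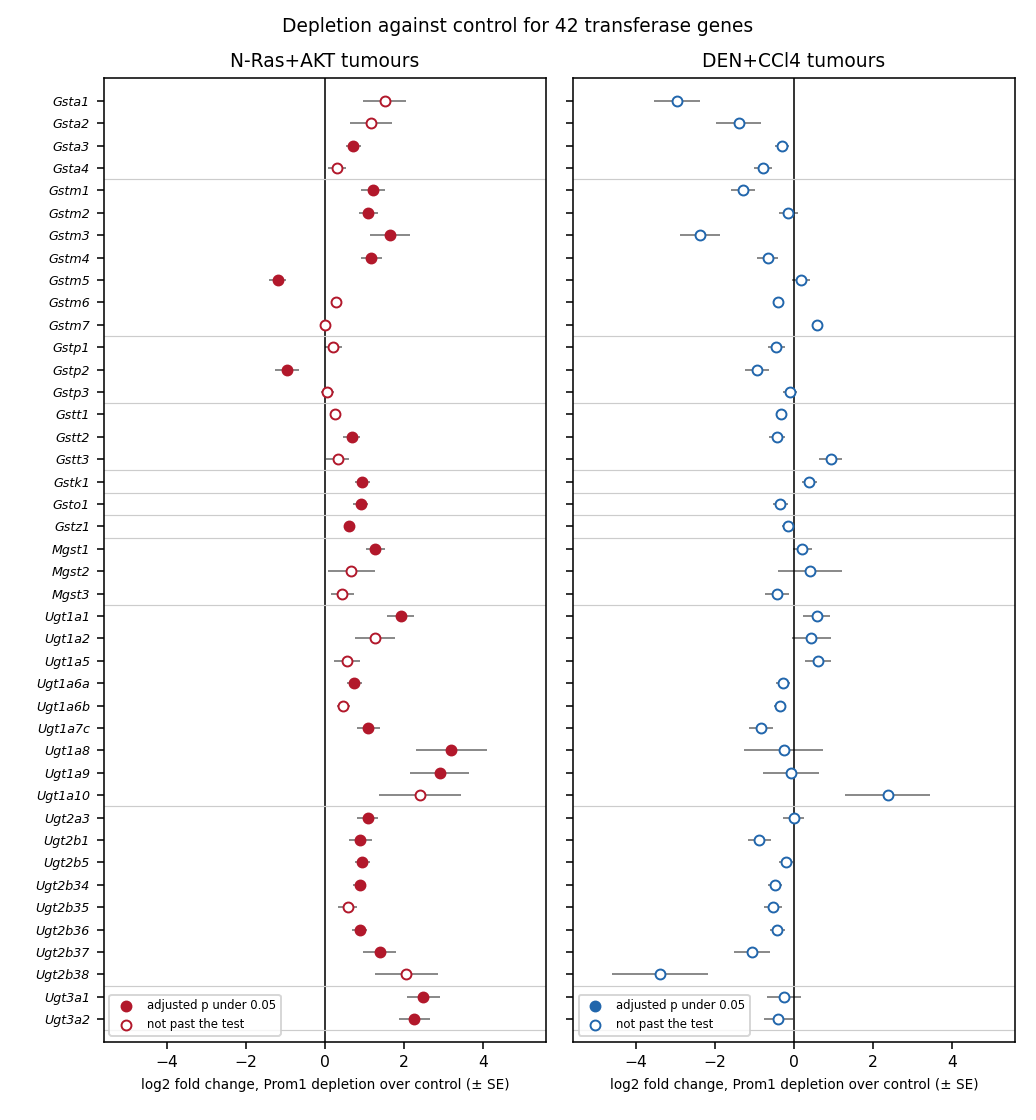
Log2 fold change of Prom1 depletion over control with its standard error for 42 transferase genes, in N-Ras+AKT tumours (left) and DEN+CCl4 tumours (right). Filled points passed an adjusted p under 0.05, which 25 members did on the left and 0 on the right.

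The alpha class holds the inducible Gsta1 and Gsta2 and the constitutive liver enzymes Gsta3 and Gsta4. Gsta1 (ENSMUSG00000074183.3, chromosome 9, 78230656 to 78242684, plus strand, GRCm38) had 219, 218 and 229 CPM after depletion, against 31.4, 139.8 and 61.7 CPM in controls, in N-Ras+AKT tumours, and 2.72, 8.91 and 9.5 CPM after depletion, against 76.3, 52.5 and 36.3 CPM in controls, in DEN+CCl4 tumours. Depletion libraries were above every control in the first model and below every control in the second. The log2 fold changes of 1.52 (SE 0.54, adjusted p = 0.0669) and -2.96 (SE 0.58, adjusted p = 0.0589) missed the threshold, while their difference of 4.47 (SE 0.79, adjusted p = 0.012) passed. Gsta2 followed at lower levels, with 41.5, 45.3 and 38.3 CPM after depletion and 7.16, 35.8 and 12.8 CPM in controls of N-Ras+AKT tumours, against 5.29, 1.81 and 4.81 CPM and 14.5, 9.51 and 7.29 CPM in the depletion and control libraries of DEN+CCl4 tumours. Of the 75-base windows of the Gsta1 coding transcript 86.3% also occur in Gsta2, Gm3776 or Gm10639 (46.9% for Gsta2, with the same genes), so the split between them is uncertain. The sum of Gsta1 and Gsta2 was 264 ± 3.17 CPM after depletion and 96.2 ± 71.1 CPM in controls of the N-Ras+AKT model, and 11.0 ± 3.16 CPM and 65.5 ± 23.8 CPM in those of the DEN+CCl4 model (mean ± SD, n = 3 each).

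Gsta3, which conjugates aflatoxin epoxide in mice, had 827, 786 and 920.5 CPM after depletion and 382, 632 and 523 CPM in controls of N-Ras+AKT tumours, and 696, 657 and 685 and 957, 765 and 797 CPM in depletion and control libraries of DEN+CCl4 tumours. It rose in N-Ras+AKT tumours (log2 fold change 0.72, SE 0.18, adjusted p = 0.0164), in 9 of 13 alternatives and not without depletion 17 or control 3, and its controls were lower than those of DEN+CCl4 tumours (log2 fold change -0.71, SE 0.18, adjusted p = 0.00866). Gsta4, the enzyme for 4-hydroxynonenal from lipid peroxidation, had 60.2, 70.2 and 65.0 CPM after depletion and 41.7, 65.2 and 51.4 CPM in controls, groups that overlap, in N-Ras+AKT tumours. Its DEN+CCl4 levels were 36.2, 51.8 and 71.0 CPM after depletion, below all controls at 109, 82.7 and 83.9 CPM (log2 fold change -0.79, SE 0.23, adjusted p = 0.108). Gsta4 was lower in N-Ras+AKT than in DEN+CCl4 controls (log2 fold change -0.80, SE 0.23, adjusted p = 0.0157).

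The mu class forms 1 cluster of 7 genes on chromosome 3. Summed over the cluster, N-Ras+AKT tumours had 5699, 4705 and 5013 CPM after depletion, against 1192, 3346 and 1732 CPM in controls, and DEN+CCl4 tumours had 729, 914 and 768 CPM after depletion, against 2329, 1704 and 1457 CPM in controls. Per exon length Gstm1 was the most abundant member, at 1121 ± 694 FPKM over the 12 libraries (mean ± SD). Gstm1 (ENSMUSG00000058135.12, chromosome 3, 108012255 to 108017973, minus strand), a major liver GST, had 3451, 2954 and 2979 CPM after depletion and 813, 2126 and 1087 CPM in controls of N-Ras+AKT tumours. The DEN+CCl4 libraries held 572, 705 and 583 CPM after depletion and 1933, 1398 and 1209 CPM in controls. In neither model did the groups overlap, and they lay in opposite order. Gstm1 rose in N-Ras+AKT tumours (log2 fold change 1.22, SE 0.31, adjusted p = 0.0169, held in 10 of 13 alternatives, lost without control 3 or 15, adjusted p up to 0.0654) and did not pass in DEN+CCl4 tumours (log2 fold change -1.29, SE 0.31, adjusted p = 0.0769), with a difference of 2.51 (SE 0.44, adjusted p = 0.0103).

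Gstm3 (ENSMUSG00000004038.9, chromosome 3, 107963696 to 107969283, minus strand) had 1858, 1381 and 1634 CPM after depletion and 203, 929 and 422 CPM in controls of N-Ras+AKT tumours. It had 17.0, 34.1 and 40.1 CPM after depletion and 224, 136 and 115 CPM in controls of DEN+CCl4 tumours. All 3 N-Ras+AKT depletion libraries exceeded every other library, and all 3 DEN+CCl4 depletion libraries were below every other library. The rise in N-Ras+AKT tumours (log2 fold change 1.65, SE 0.50, adjusted p = 0.0365) held in 5 of 13 alternatives and was lost without depletion 6, 11 or 17 or control 3 or 15 (adjusted p up to 0.115). The difference of effects, 4.03 (SE 0.72, adjusted p = 0.0117), held in 18 of 18. Its share of cluster counts was 32.6, 29.3 and 32.6% after depletion and 17.0, 27.8 and 24.4% in controls of N-Ras+AKT tumours, against 2.33, 3.73 and 5.22% and 9.62, 7.95 and 7.89% in the depletion and control libraries of DEN+CCl4 tumours. Windows shared with other mu genes or pseudogenes made up 21.6% of the Gstm3 and 14.8% of the Gstm1 transcript.

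**Figure D3:**
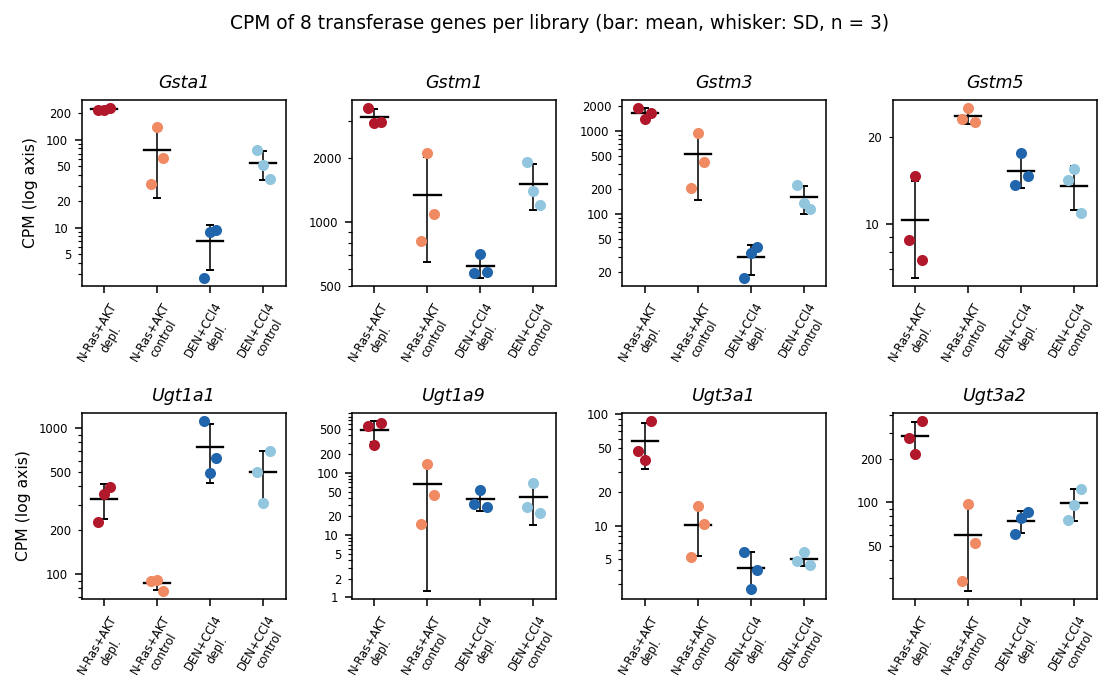
CPM per library (log axis) of 8 transferase genes in N-Ras+AKT depletion and control and DEN+CCl4 depletion and control tumours; bars are means and whiskers SD of 3 libraries. Gsta1, Gstm1 and Gstm3 separate depletion from control in both models in opposite directions, whereas Gstm5 is lowest and Ugt1a9, Ugt3a1 and Ugt3a2 are highest in N-Ras+AKT depletion libraries on average.

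Gstm2 had 225, 211 and 225 CPM after depletion and 64.4, 141 and 104 CPM in controls of N-Ras+AKT tumours, and 27.0, 37.7 and 28.5 CPM and 40.1, 32.0 and 30.6 CPM in depletion and control libraries of DEN+CCl4 tumours. It rose in the first model (log2 fold change 1.10, SE 0.24, adjusted p = 0.00897) and its N-Ras+AKT controls were above the DEN+CCl4 controls (log2 fold change 1.59, SE 0.24, adjusted p = 0.000477). Gstm4 rose in N-Ras+AKT tumours to 77.4, 70.8 and 86.5 CPM, against 22.6, 50.6 and 31.1 CPM in controls (log2 fold change 1.17, SE 0.27, adjusted p = 0.0122; adjusted p = 0.0506 without control 15), and had 17.2, 22.8 and 19.5 CPM and 33.4, 38.3 and 22.8 CPM in the depletion and control libraries of DEN+CCl4 tumours. Gstm5 went the other way within the same cluster: it had 8.79, 14.7 and 7.51 CPM after depletion, against 23.2, 25.3 and 22.6 CPM in controls, in N-Ras+AKT tumours. DEN+CCl4 libraries had 13.7, 17.6 and 14.7 CPM after depletion and 14.2, 15.5 and 10.9 CPM in controls, which overlap. Gstm5 fell in N-Ras+AKT tumours (log2 fold change -1.2, SE 0.22, adjusted p = 0.00523), in all 13 alternatives. Gstm7 was 24.7 to 27.0 CPM after depletion and 22.9 to 27.4 CPM in controls of N-Ras+AKT tumours, and 47.9 to 60.4 CPM after depletion and 31.8 to 39.98 CPM in controls of DEN+CCl4 tumours, the 1 mu gene whose DEN+CCl4 depletion libraries were all above the controls (log2 fold change 0.58, SE 0.12, adjusted p = 0.0586). Gstm6 passed the test neither in N-Ras+AKT (log2 fold change 0.28, SE 0.13, adjusted p = 0.126) nor in DEN+CCl4 tumours (log2 fold change -0.40, SE 0.13, adjusted p = 0.137), but the difference did (log2 difference 0.68, SE 0.18, adjusted p = 0.0327).

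Among the pi genes, Gstp1, the main pi enzyme of mouse liver, had 624, 569 and 639 CPM after depletion and 465, 635 and 482 CPM in controls of N-Ras+AKT tumours, with 485, 728 and 644 CPM and 1064, 833 and 631 CPM in depletion and control libraries of DEN+CCl4 tumours. Groups overlapped in both models and neither change passed (log2 fold change 0.21, SE 0.21, adjusted p = 0.511 and log2 fold change -0.44, SE 0.22, adjusted p = 0.294). Gstp2 fell in N-Ras+AKT tumours (log2 fold change -0.96, SE 0.30, adjusted p = 0.0399, in 6 of 13 alternatives), but not without depletion 6 or 17 or any 1 of the controls (adjusted p up to 0.15). Of its transcript windows 68.2% are shared with Gstp1, which had far more counts, or a pseudogene. Gstp3 was 8.37 to 10.8 CPM after depletion and 7.31 to 10.6 CPM in controls of N-Ras+AKT tumours and passed in neither model.

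The theta genes Gstt1 and Gstt3 differed between the models. Gstt1, which acts on halomethanes, had 106, 116 and 132 CPM after depletion and 96.0, 104 and 96.0 CPM in controls of N-Ras+AKT tumours, all below the 147, 183 and 202 CPM and 239, 216 and 208 CPM of depletion and control libraries of DEN+CCl4 tumours. Gstt3 had 29.7, 43.4 and 37.0 CPM after depletion and 20.9, 43.9 and 23.1 CPM in controls of N-Ras+AKT tumours, against 251, 174 and 131 CPM and 109, 90.1 and 92.7 CPM in DEN+CCl4 depletion and control libraries. N-Ras+AKT was lower than DEN+CCl4 for Gstt3 both after depletion (log2 fold change -2.34, SE 0.31, adjusted p = 0.000288) and in controls (log2 fold change -1.73, SE 0.30, adjusted p = 0.00121), and for Gstt1 likewise (log2 fold change -0.59, SE 0.14, adjusted p = 0.00641 and log2 fold change -1.17, SE 0.14, adjusted p = 0.000104). For Gstt3, 24.97% of transcript windows also occur in Gm20441. Gstt2 rose with depletion in N-Ras+AKT tumours (log2 fold change 0.68, SE 0.21, adjusted p = 0.0355, in 7 of 13 alternatives), but not without depletion 11 or 17 or control 3 or 15 (adjusted p up to 0.154).

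Among the remaining cytosolic and mitochondrial enzymes, Gsto1, a thioltransferase and dehydroascorbate reductase, had 43.3, 47.3 and 57.1 CPM after depletion and 23.5, 32.6 and 22.5 CPM in controls of N-Ras+AKT tumours, and 52.1, 33.9 and 42.01 CPM and 58.4, 47.0 and 57.2 CPM in depletion and control libraries of DEN+CCl4 tumours. It rose in N-Ras+AKT tumours (log2 fold change 0.91, SE 0.18, adjusted p = 0.00692), whose controls were below those of DEN+CCl4 tumours (log2 fold change -1.05, SE 0.18, adjusted p = 0.00109). Gstz1, maleylacetoacetate isomerase of tyrosine breakdown, had 395, 364 and 438 CPM after depletion and 220.3, 310.4 and 248 CPM in controls of N-Ras+AKT tumours, with 365, 398 and 417 CPM and 457, 413 and 439 CPM in the DEN+CCl4 depletion and control libraries. Its rise (log2 fold change 0.62, SE 0.15, adjusted p = 0.0133) held in 11 of 13 alternatives and was lost without depletion 17. Gstk1, found in mitochondria and peroxisomes, rose in N-Ras+AKT tumours (log2 fold change 0.95, SE 0.19, adjusted p = 0.00647) and did not pass in DEN+CCl4 tumours (log2 fold change 0.38, SE 0.19, adjusted p = 0.299), a difference that did not pass either (log2 difference 0.56, SE 0.26, adjusted p = 0.182). Gsto2 did not exceed 0.165 CPM in any library.

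Of the microsomal GSTs, Mgst1 (ENSMUSG00000008540.11, chromosome 6, 138140316 to 138156755, plus strand) is a membrane enzyme with peroxidase activity. Over the 12 libraries pooled it was the second most abundant member per exon length (582 ± 358 FPKM). By group, Gstm3 exceeded it in N-Ras+AKT depletion libraries (1239 against 1143 FPKM). Gstp1 exceeded it in DEN+CCl4 depletion (400 against 383 FPKM) and control libraries (544 against 330 FPKM). Mgst1 had 2138, 2126 and 2636 CPM after depletion, against 697, 1402 and 754 CPM in controls, of N-Ras+AKT tumours. The DEN+CCl4 tumours had 851, 699.6 and 759.9 CPM after depletion and 701, 640.4 and 651 CPM in controls. N-Ras+AKT depletion libraries exceeded all others. Mgst1 rose in N-Ras+AKT tumours (log2 fold change 1.27, SE 0.24, adjusted p = 0.00568), in all 13 alternatives, and in DEN+CCl4 tumours its log2 fold change was 0.21 (SE 0.24, adjusted p = 0.677). The effects differed by 1.06 (SE 0.34, adjusted p = 0.0638), short of the threshold. Mgst2, which can make leukotriene C4, was low, with 0.765, 1.34 and 0.699 CPM after depletion and 0.314, 1.09 and 0.363 CPM in controls of N-Ras+AKT tumours and 0.209, 0.259 and 0.0925 CPM and 0.107, 0.0276 and 0.289 CPM in those of DEN+CCl4 tumours. Mgst3 was 22.3 to 33.2 CPM after depletion and 15.6 to 28.4 CPM in controls of N-Ras+AKT tumours and passed in neither model.

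The UGT1A enzymes are made from 1 locus on chromosome 1 in which each gene has its own promoter and first exon and shares the exons downstream. Ugt1a1 conjugates bilirubin, Ugt1a6a and Ugt1a6b act on small phenols, and Ugt1a9 acts on bulky phenols and drugs. The 250 bases before the RefSeq start (GRCm38.p6, all on the plus strand) are shown for Ugt1a9 and Ugt1a1, whose levels in every library follow, and for Ugt1a10, the other member promoter with the same motif. Capitals mark matches to the HNF1 motif, searched on both strands.
Ugt1a9 chr1:88070529-88070778: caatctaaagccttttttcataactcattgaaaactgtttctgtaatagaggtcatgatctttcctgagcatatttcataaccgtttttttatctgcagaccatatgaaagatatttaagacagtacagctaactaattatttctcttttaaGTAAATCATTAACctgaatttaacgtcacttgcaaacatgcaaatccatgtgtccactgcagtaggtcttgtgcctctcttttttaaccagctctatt
Ugt1a10 chr1:88055161-88055410: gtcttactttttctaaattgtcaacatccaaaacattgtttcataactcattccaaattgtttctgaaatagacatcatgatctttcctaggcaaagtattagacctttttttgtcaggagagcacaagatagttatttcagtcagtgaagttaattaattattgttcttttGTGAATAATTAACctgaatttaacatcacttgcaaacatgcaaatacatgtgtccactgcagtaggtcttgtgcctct
Ugt1a1 chr1:88211709-88211958: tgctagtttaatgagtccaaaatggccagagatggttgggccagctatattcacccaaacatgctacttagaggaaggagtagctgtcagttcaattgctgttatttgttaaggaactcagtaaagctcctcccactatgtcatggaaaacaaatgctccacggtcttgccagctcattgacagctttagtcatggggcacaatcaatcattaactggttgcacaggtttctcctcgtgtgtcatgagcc
For Ugt1a9 the annotated gene begins at 88070800, shortly after the RefSeq start used here. Each match was on the minus strand, from 98 bases before the RefSeq start in Ugt1a9 and 78 bases before it in Ugt1a10. Only 19 of 32851 promoter windows (250 bases before to 50 after a start) in the RefSeq table hold this motif (0.0578%), and among the 48 windows of 39 member genes in the table these were the only ones. The bases that follow the match are nearly the same in Ugt1a9 and Ugt1a10, so their matches are not independent. Gsta4, Gstt2, Ugt1a6b and Ugt3a2 are not among the 39. The HNF4 direct repeat was in none of the 48 windows and in 0.0396% of all windows.

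Summed over the 9 genes, the locus had 1069, 892 and 1307 CPM after depletion, against 254, 461 and 269 CPM in controls, in N-Ras+AKT tumours. DEN+CCl4 tumours had a sum of 1394, 744 and 858 CPM after depletion and 779, 613 and 899.7 CPM in controls. The groups did not overlap in N-Ras+AKT tumours and overlapped in DEN+CCl4 tumours. Because the genes share their downstream exons (57.7% to 100% of transcript windows occur in another gene), the sum is firmer than its division among the genes.

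Ugt1a1 (ENSMUSG00000089960.1, chromosome 1, 88211959 to 88218997, plus strand) had 228, 355 and 394 CPM after depletion and 90.1, 91.96 and 77.3 CPM in controls of N-Ras+AKT tumours. Levels in DEN+CCl4 tumours were 1115, 494 and 626 CPM after depletion and 499, 309 and 696 CPM in controls. The N-Ras+AKT controls were the lowest of all libraries and close together. Ugt1a1 rose in N-Ras+AKT tumours (log2 fold change 1.91, SE 0.35, adjusted p = 0.0052) in all 13 alternatives, and its log2 fold change in DEN+CCl4 tumours was 0.57 (SE 0.34, adjusted p = 0.395). It was lower in N-Ras+AKT than in DEN+CCl4 tumours both in controls (log2 fold change -2.54, SE 0.36, adjusted p = 0.00033) and after depletion (log2 fold change -1.19, SE 0.34, adjusted p = 0.02), and the second of these calls was lost without DEN+CCl4 depletion 6 or N-Ras+AKT depletion 6 (adjusted p up to 0.0815).

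Ugt1a9 (ENSMUSG00000090175.1, chromosome 1, 88070800 to 88218997, plus strand) had 559.7, 285 and 631 CPM after depletion and 14.9, 138 and 43.9 CPM in controls of N-Ras+AKT tumours, with control 10 nearest to the depletion libraries. It had 31.6, 53.9 and 28.7 CPM after depletion and 28.4, 69.4 and 22.7 CPM in controls of DEN+CCl4 tumours, where the groups overlap. The rise in N-Ras+AKT tumours (log2 fold change 2.91, SE 0.75, adjusted p = 0.0203) held in 9 of 13 alternatives and was lost without depletion 17 or control 15 (adjusted p up to 0.0788), and the difference of effects did not pass (log2 difference 2.99, SE 1.01, adjusted p = 0.0827). After depletion Ugt1a9 was higher in N-Ras+AKT than in DEN+CCl4 tumours (log2 fold change 3.69, SE 0.78, adjusted p = 0.00484) in all 13 alternatives.

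Ugt1a1 took 21.3, 39.8 and 30.2% of locus counts after depletion and 35.5, 19.9 and 28.8% in controls of N-Ras+AKT tumours, against 79.9, 66.3 and 73.0% and 64.1, 50.5 and 77.3% in the depletion and control libraries of DEN+CCl4 tumours, with no overlap between the models. Ugt1a9 took 52.4, 31.9 and 48.3% after depletion and 5.87, 29.9 and 16.3% in controls of N-Ras+AKT tumours, against 2.27, 7.23 and 3.35% and 3.64, 11.3 and 2.52% in the depletion and control libraries of DEN+CCl4 tumours.

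**Figure D4:**
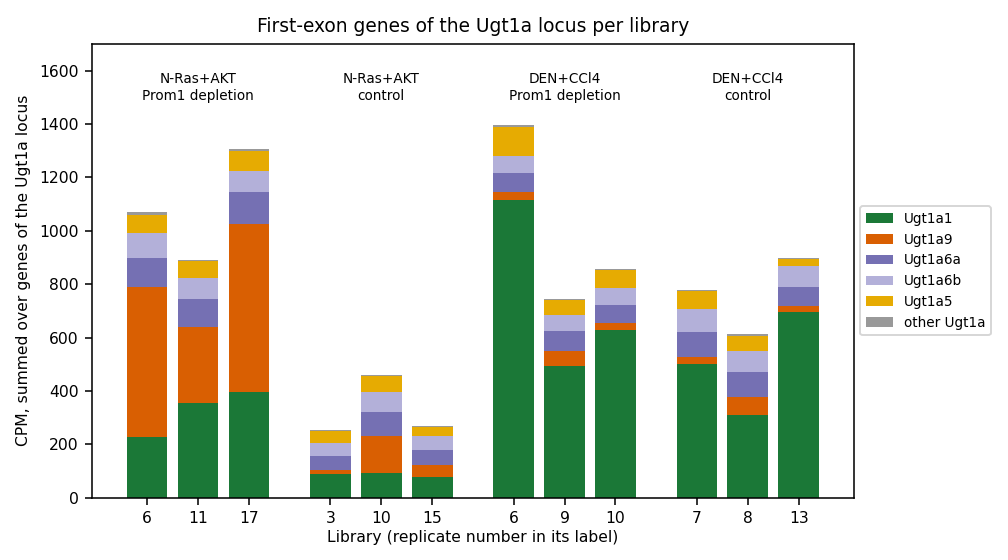
CPM of the Ugt1a genes stacked per library, by group. Ugt1a1 makes up 50.5% to 79.9% of each DEN+CCl4 bar and 19.9% to 39.8% of each N-Ras+AKT bar, and Ugt1a9 makes up 31.9% to 52.4% of the N-Ras+AKT depletion bars.

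Of the other UGT1A genes, Ugt1a6a rose in N-Ras+AKT tumours (log2 fold change 0.75, SE 0.19, adjusted p = 0.0159, in 8 of 13 alternatives), as did Ugt1a7c with 7.67, 3.77 and 5.59 CPM after depletion and 2.23, 2.89 and 2.85 CPM in controls (log2 fold change 1.10, SE 0.29, adjusted p = 0.021, in 9 of 13). Ugt1a7c in DEN+CCl4 tumours had 2.72, 2.01 and 1.33 CPM after depletion and 3.06, 4.11 and 3.67 CPM in controls, and its difference of effects was 1.94 (SE 0.42, adjusted p = 0.0175). Ugt1a8 passed (log2 fold change 3.20, SE 0.89, adjusted p = 0.0241) on few counts, 0.574, 0.418 and 0.97 CPM after depletion and 0, 0.11 and 0.101 CPM in controls of N-Ras+AKT tumours and 0.174, 0.144 and 0.0617 CPM and 0.178, 0.276 and 0 CPM in those of DEN+CCl4 tumours, so its size is poorly fixed. All 3 calls were lost without depletion 17 or control 3 or 15 (adjusted p up to 0.0628 for Ugt1a6a, 0.0868 for Ugt1a7c and 0.093 for Ugt1a8), and that of Ugt1a7c also without depletion 6. Ugt1a2, Ugt1a5, Ugt1a6b and Ugt1a10 had positive log2 fold changes of 0.47 to 2.42 in N-Ras+AKT tumours that did not pass. No UGT1A gene passed in DEN+CCl4 tumours.

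The UGT2 genes, which conjugate steroids, bile acids and fatty acids, lie in 1 cluster on chromosome 5, and 6 of 8 rose in N-Ras+AKT tumours. The cluster sum was 2867, 2518 and 3487 CPM after depletion, against 1221, 2068 and 1529 CPM in controls, of N-Ras+AKT tumours and 1205, 1247 and 1353 CPM after depletion, against 1768, 1575 and 1639 CPM in controls, of DEN+CCl4 tumours. Depletion libraries were above all controls in the first model and below all controls in the second. Ugt2b5 was the most abundant UGT per exon length over the 12 libraries pooled (268 ± 141 FPKM). In DEN+CCl4 tumours Ugt1a1 exceeded it, at 335 against 158 FPKM after depletion and 225 against 182 FPKM in controls. Ugt2b5 had 873, 757 and 1062 CPM after depletion and 383, 591 and 423 CPM in controls of N-Ras+AKT tumours. In depletion and control libraries of DEN+CCl4 tumours it had 281, 285 and 313 CPM and 361, 344 and 311 CPM. It rose in the first model (log2 fold change 0.95, SE 0.18, adjusted p = 0.00605). Ugt2b36 had 567, 509 and 678 CPM after depletion and 241, 414 and 298 CPM in controls of N-Ras+AKT tumours, with 267, 265 and 300.5 CPM and 378, 355 and 379 CPM in those of DEN+CCl4 tumours, and also rose in the first (log2 fold change 0.88, SE 0.19, adjusted p = 0.0085).

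Ugt2b34 had 543, 515 and 688 CPM after depletion and 247, 369 and 334 CPM in controls of N-Ras+AKT tumours, against 247, 242 and 274 CPM and 395, 342 and 334 CPM in the depletion and control libraries of DEN+CCl4 tumours, with no overlap within either model. It rose in N-Ras+AKT tumours (log2 fold change 0.88, SE 0.17, adjusted p = 0.00635), and the difference of effects of 1.37 (SE 0.24, adjusted p = 0.0108) passed in all 18 alternatives. Ugt2b1 had 298, 224 and 331 CPM after depletion and 104, 216 and 139 CPM in controls of N-Ras+AKT tumours, with 58.5, 101 and 113 CPM and 176, 139 and 187 CPM in those of DEN+CCl4 tumours. Its rise (log2 fold change 0.90, SE 0.29, adjusted p = 0.0457) held in 6 of 13 alternatives, and not without depletion 6 or 17 or control 3 or 15 (adjusted p up to 0.152). Ugt2a3 rose (log2 fold change 1.08, SE 0.27, adjusted p = 0.0164, in 8 of 13, and up to 0.0706 without depletion 17 or control 3 or 15) and Ugt2b35 did not pass (log2 fold change 0.57, SE 0.24, adjusted p = 0.0977).

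The low members Ugt2b37 and Ugt2b38 spread most. Ugt2b37 had 8.82, 6.65 and 19.6 CPM after depletion and 3.33, 6.48 and 3.63 CPM in controls of N-Ras+AKT tumours, and 0.696, 1.38 and 1.7 CPM and 2.67, 2.18 and 3.04 CPM in depletion and control libraries of DEN+CCl4 tumours. It rose in N-Ras+AKT tumours (log2 fold change 1.38, SE 0.42, adjusted p = 0.035), in 7 of 13 alternatives, and not without depletion 17 or control 3 or 15 (adjusted p up to 0.177). Ugt2b38 had 1.36, 0.683 and 5.89 CPM after depletion and 0.347, 0.644 and 0.909 CPM in controls of N-Ras+AKT tumours, against 0.0696, 0.0575 and 0 CPM and 0.107, 0.634 and 0.637 CPM in the DEN+CCl4 depletion and control libraries. Its difference of effects (log2 difference 5.46, SE 1.43, adjusted p = 0.0333) rests on few counts, passed in 7 of 18 alternatives and was lost without any DEN+CCl4 depletion library, DEN+CCl4 control 8 or 13, N-Ras+AKT depletion 17, or N-Ras+AKT control 3 or 15 (adjusted p up to 0.138), and 28.0% of its windows are shared with Ugt2b5 or Ugt2b37.

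Both UGT3 genes had a log2 fold change above 2 in N-Ras+AKT tumours. In humans the UGT3A enzymes use sugars other than glucuronic acid. Ugt3a1 (ENSMUSG00000072664.11, chromosome 15, 9276888 to 9315032, plus strand) had 47.1, 38.8 and 86.4 CPM after depletion, against 5.28, 15.1 and 10.3 CPM in controls, of N-Ras+AKT tumours, and 5.85, 2.7 and 4.04 CPM and 4.77, 5.79 and 4.46 CPM in depletion and control libraries of DEN+CCl4 tumours. The lowest N-Ras+AKT depletion library exceeded every control of both models. Ugt3a1 rose by a log2 fold change of 2.49 (SE 0.42, adjusted p = 0.00451). Ugt3a2 (ENSMUSG00000049152.11, chromosome 15, 9335550 to 9370955, plus strand), its neighbour, had 278, 214 and 362 CPM after depletion, against 28.8, 96.8 and 52.2 CPM in controls, of N-Ras+AKT tumours, and 60.7, 77.6 and 86.1 CPM and 75.3, 96.4 and 124 CPM in those of DEN+CCl4 tumours. Ugt3a2 rose likewise (log2 fold change 2.26, SE 0.39, adjusted p = 0.00454), and both calls held in all 13 alternatives. Changes in DEN+CCl4 tumours were -0.26 (SE 0.43, adjusted p = 0.791) and -0.40 (SE 0.37, adjusted p = 0.607), and the differences of effects were 2.75 (SE 0.59, adjusted p = 0.019) and 2.66 (SE 0.54, adjusted p = 0.0153). The last of these was lost without the 2 libraries that stood apart (adjusted p = 0.0673).

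Between the models, N-Ras+AKT controls differed from DEN+CCl4 controls in 15 of 42 members (40.6% of all genes did), with 5 higher (11.9% against 20.8% of all genes) and 10 lower (23.8% against 19.8%), shares near or under the background. Gstm2, Gstm3, Gstm5, Gstp3 and Mgst2 were higher, and Gsta3, Gsta4, Gstm7, Gsto1, Gstp1, Gstt1, Gstt3, Gstz1, Ugt1a1 and Ugt1a6b lower. Gsta3, Gstm2, Gstm7, Gsto1, Gstt1, Gstt3, Gstz1 and Ugt1a1 passed in all 13 alternatives, while Gstm3 was lost without N-Ras+AKT control 10 or DEN+CCl4 control 8 or 13 (adjusted p up to 0.0837) and Gsta4 without N-Ras+AKT control 3 or DEN+CCl4 control 7 (adjusted p up to 0.065). Mgst2 kept its call in 7 of 13. Groups did not overlap in 18 members (54.5% of all genes), with 7 higher (28.4%) and 11 lower (26.1%). After depletion 28 members passed (33.7% of all genes did): 24 members were higher in N-Ras+AKT than in DEN+CCl4 tumours (57.1% against 17.9% of all genes) and Gstm7, Gstt1, Gstt3 and Ugt1a1 were lower (9.52% against 15.8%). Groups did not overlap in 31 members (46.6% of all genes), with 27 higher (24.3%) and 4 lower (22.3%). The largest differences were Ugt2b38 at 5.88 (SE 1.12, adjusted p = 0.0024), Gstm3 at 5.74 (SE 0.60, adjusted p = 8.88e-05), Gsta1 at 4.97 (SE 0.63, adjusted p = 0.000306) and Ugt3a1 at 3.78 (SE 0.45, adjusted p = 0.000199), and these 4 passed in all 13 alternatives. Without 1 library at a time the counts were 10 to 17 in controls and 24 to 26 after depletion.

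**Figure D5:**
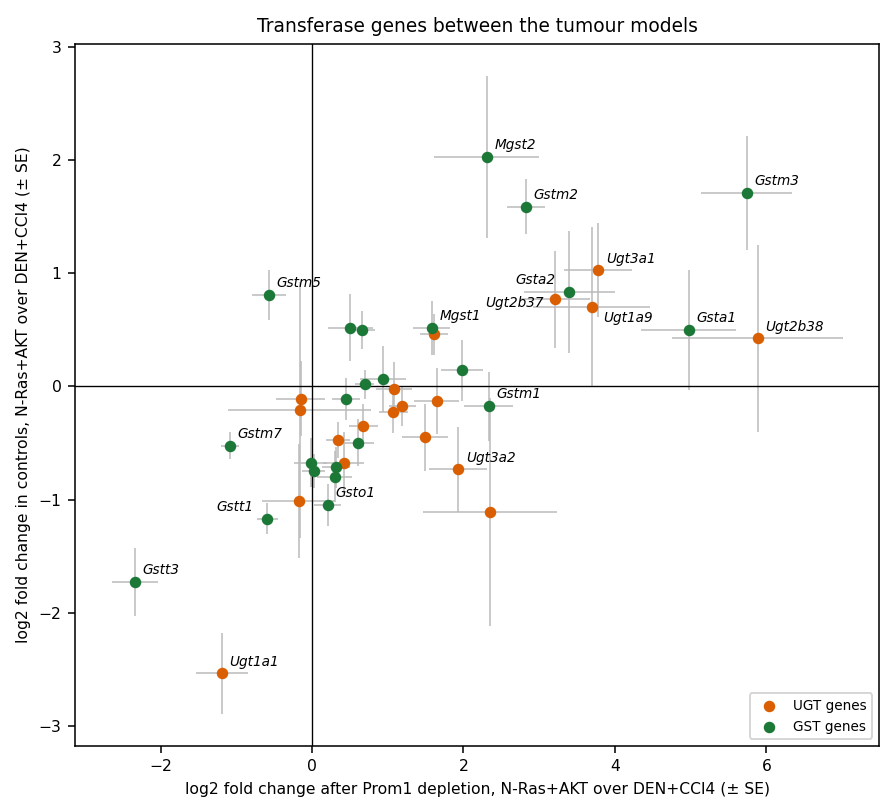
Log2 fold change of N-Ras+AKT over DEN+CCl4 tumours after Prom1 depletion (x axis) and in controls (y axis), with standard errors, for 42 transferase genes. Gstm3 and Gsta1 lie far to the right, while Ugt1a1 and Gstt3 are below 0 on both axes.

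After depletion in N-Ras+AKT tumours 12.8% of all genes tested rose and 10.8% fell, the background for the pathway lists that follow. Of 19 tested genes of glutathione synthesis and recycling, 4 rose and 0 fell after depletion in N-Ras+AKT tumours, with a median log2 fold change of 0.15 (-0.02 over all genes). Gclm, the regulatory subunit of the first enzyme of glutathione synthesis, was among them (log2 fold change 0.42, SE 0.12, adjusted p = 0.0254). Its catalytic partner Gclc had 586, 469 and 464 CPM after depletion and 350.0, 533 and 481 CPM in controls of N-Ras+AKT tumours and 139, 153 and 182 CPM and 394, 410.2 and 310.4 CPM in those of DEN+CCl4 tumours, where it fell (log2 fold change -1.23, SE 0.19, adjusted p = 0.0313). Of 13 genes of UDP-glucuronic acid supply and glucuronide cleavage, 4 rose and 2 fell in N-Ras+AKT tumours (median 0.46). Ugdh, which makes UDP-glucuronic acid, had 279, 256 and 299 CPM after depletion and 108, 183 and 117 CPM in controls of N-Ras+AKT tumours (log2 fold change 1.03, SE 0.30, adjusted p = 0.0293) and 52.3, 79.1 and 88.7 CPM and 197, 248 and 109 CPM in those of DEN+CCl4 tumours. Of 10 conjugate efflux pumps 3 rose and 0 fell in N-Ras+AKT tumours, among them Abcc3 (log2 fold change 1.2, SE 0.30, adjusted p = 0.0165), and of 8 genes of bilirubin uptake and formation 4 rose and 0 fell, led by the uptake carrier Slco1b2 (log2 fold change 2.12, SE 0.34, adjusted p = 0.00374).

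The shares over all genes tested were 12.8% higher and 10.8% lower in N-Ras+AKT tumours, and 0.112% higher and 0.259% lower in DEN+CCl4 tumours. Of 19 tested regulators of transferase genes, 5 rose and 1 fell in N-Ras+AKT tumours, with a median of 0.15. Nr1i3, which codes for CAR, rose the most, to 57.7, 92.3 and 87.6 CPM, against 9.44, 26.2 and 11.1 CPM in controls (log2 fold change 2.35, SE 0.43, adjusted p = 0.00573). It had 209.9, 121 and 94.4 CPM after depletion and 77.1, 62.4 and 101 CPM in controls of DEN+CCl4 tumours. Hnf4a rose as well (log2 fold change 0.56, SE 0.15, adjusted p = 0.0188), and Maff, a small Maf protein, fell (log2 fold change -1.82, SE 0.41, adjusted p = 0.012). Among 20 NRF2 targets that are not transferases, 6 rose and 0 fell in N-Ras+AKT tumours (median 0.55), and 0 rose and 2 fell in DEN+CCl4 tumours (median -0.54, -0.01 over all genes). These 2 were Cbr3 and Gclc, and Gclc is also in the list of glutathione synthesis, so the lists are not independent. The largest difference was in Cbr3, a carbonyl reductase, at 55.2, 45.5 and 40.4 CPM after depletion and 8.63, 35.2 and 22.03 CPM in controls of N-Ras+AKT tumours, against 1.15, 1.01 and 1.33 CPM and 28.4, 25.5 and 10.7 CPM in depletion and control libraries of DEN+CCl4 tumours (difference of effects log2 5.31, SE 0.71, adjusted p = 0.00727). The list of 13 genes induced through CAR, PXR or AhR holds P450 genes and the aldehyde dehydrogenases Aldh1a1 and Aldh1a7. Of these 13 genes, 9 rose and 1 fell in N-Ras+AKT tumours (median 2.07), and 0 rose and 1 fell in DEN+CCl4 tumours (median 0.16).

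The RefSeq table holds 2 promoter windows of Mgst1 (GRCm38.p6, plus strand). The first is printed because it holds the core of the antioxidant response element, TGACNNNGC, through which NRF2 acts, read on both strands and shown in capitals.
Mgst1 chr6:138140277-138140526: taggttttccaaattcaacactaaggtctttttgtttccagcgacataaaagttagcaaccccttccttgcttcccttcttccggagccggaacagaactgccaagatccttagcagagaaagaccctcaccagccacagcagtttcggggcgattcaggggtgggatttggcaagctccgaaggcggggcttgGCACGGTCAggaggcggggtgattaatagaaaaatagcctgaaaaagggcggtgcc
The annotated Mgst1 gene begins at 138140316, so most of this window, with the core, lies inside the gene. The 250 bases before the other Mgst1 start, at chr6:138141337-138141586, also lie inside it and hold none of the motifs searched. The antioxidant core was in 12.4% of all promoter windows and in 4 of the 48 member windows (8.33%). These 4 belong to Gsta3, Gstm5, Gstm7 and Mgst1, of which Gstm5 fell and Gsta3 and Mgst1 rose in N-Ras+AKT tumours. The AhR core TNGCGTG was in 5.07% of all windows and in 2 of the 48 member windows (4.17%), those of Gsta2 and Ugt1a5. A match describes letters in the window and not binding.

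Some lists of cell type markers moved after depletion in N-Ras+AKT tumours. There, 12.8% of all genes tested rose and 10.8% fell. Of 12 pericentral hepatocyte markers, which include several P450 genes and Glul, 10 rose and 0 fell (median 2.17), with a summed level of 3669 to 6031 CPM after depletion and 609 to 1333 CPM in controls. Glul, glutamine synthetase, was among them (log2 fold change 2.63, SE 0.36, adjusted p = 0.00334). Of 12 periportal markers 6 rose and 1 fell (median 0.94), summed to 13016 to 16266 CPM after depletion and 6207 to 8598 CPM in controls. Of 10 hepatocyte markers 3 rose and 0 fell (median 0.34, -0.02 over all genes). The 3 were Cyp2e1, Cps1 and Hnf4a, which are also in the pericentral, periportal and regulator lists. The summed level of the 10 was 62119.8 to 73339.6 CPM after depletion and 65743 to 72307 CPM in controls, ranges that overlap. Most of that sum was albumin. Of 7 cholangiocyte markers 5 fell and 0 rose, summed to 309 to 3485 CPM and 7144 to 10337 CPM, most of it Spp1, and none was at 0. In DEN+CCl4 tumours the median log2 fold changes of these 4 lists were -0.62 to 0.11, with hepatocyte markers at 152932 to 194788 CPM after depletion and 179361 to 237186 CPM in controls and cholangiocyte markers at 48.1 to 155 CPM and 197 to 493 CPM. Between controls, 8 of 10 hepatocyte markers were lower and 7 of 7 cholangiocyte markers higher in N-Ras+AKT than in DEN+CCl4 tumours. In that comparison 19.8% of all genes were lower and 20.8% higher. Of markers of other cells in N-Ras+AKT tumours, 6 of 10 macrophage genes rose and 1 fell, 5 of 10 T and NK cell genes and 4 of 10 B and plasma cell genes rose and 0 fell, 4 of 10 endothelial genes rose and 1 fell and 1 of 10 stellate cell genes rose and 1 fell. Neutrophil and erythroid markers had median log2 fold changes of -0.39 and -0.54. The part of these markers in the transferase values was not tested.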

How the data were processed

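RNA was measured in 12 bulk tumour libraries (4 groups of 3, grouped by the sample titles), while 6 single-cell samples are not used here. The authors deposited 1 table of whole-number counts per gene, with no normalization. Per the labels' protocols, poly-A libraries were made from frozen tissue. RSEM 1.3.1 and STAR 2.7.3 are named for the series per the submitters' processing notes, as are Cell Ranger 3.0.2 and the mm10 build, without their roles. The counts may thus be rounded RSEM estimates, in which a model divides reads between near-identical genes. Neither annotation release nor strand setting is given in these sources. Symbols and positions came from GENCODE M21 on GRCm38, and 181 of 55335 genes had no match (up to 0.0108% of a library). Promoters came from the RefSeq table of GRCm38.p6.

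Library sizes were scaled by TMM, with factors of 0.773 to 0.926 in DEN+CCl4 libraries. The factors were 1.05 to 1.13 in N-Ras+AKT depletion libraries and 1.23 to 1.323 in their controls. The filter filterByExpr kept 17013 genes, and all 12 libraries entered 1 quasi-likelihood fit of 4 group means in edgeR 4.0.16 (R 4.3.3, robust, 8 residual degrees of freedom, two-sided, Benjamini-Hochberg adjustment over all genes, threshold 0.05). Standard errors are those implied by the F statistic. FPKM is CPM per kilobase of the union of exons. Totals of 31306617 to 48055812 counts gave a common biological coefficient of variation of 0.238. Genes annotated as rRNA took 3.05% to 13.0% of counts in DEN+CCl4 libraries, the most in control 7, and 1.08% to 3.25% in N-Ras+AKT libraries. Every pair of replicates differed by more than sampling noise. The script was tested on simulated data. Alternatives were DESeq2 size factors, no filter, DESeq2 1.42.0, limma-voom (limma 3.58.1), only the groups compared, leaving out each replicate, leaving out 2 libraries that stood apart, and leaving out rRNA genes. Members, lists of pathway and cell type genes, and alternatives were chosen with earlier results of these data known. Named with values in every library were Ugt1a1, the members past the test with the largest change in a comparison (at most 12), and the 8 with the highest FPKM. From a list at most 4 genes past the test were named, and Gclc, Ugdh and Nr1i3 in DEN+CCl4 and Gclc in N-Ras+AKT tumours are given beside the other model whether or not they passed there.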

Additional observations from a re-analysis of the deposited data

Results flagged for a closer look

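The depletion effect differed between the tumour models, by the test of the difference itself (log2, N-Ras+AKT minus DEN+CCl4, edgeR, adjusted p under 0.05), in 24 transferase genes, 22 of them with a positive difference. In the alpha class the differences were Gsta1 4.47 (SE 0.79), Gsta3 1.03 (SE 0.26) and Gsta4 1.09 (SE 0.32). Mu class differences were Gstm1 2.51 (SE 0.44), Gstm2 1.24 (SE 0.34), Gstm3 4.03 (SE 0.72), Gstm4 1.83 (SE 0.38), Gstm5 -1.37 (SE 0.31), Gstm6 0.68 (SE 0.18) and Gstm7 -0.56 (SE 0.17). Among the other GST classes they were Gsto1 1.25 (SE 0.26), Gstt2 1.11 (SE 0.29) and Gstz1 0.77 (SE 0.21). For UGT1A genes the values were Ugt1a6a 1.02 (SE 0.26), Ugt1a6b 0.82 (SE 0.23) and Ugt1a7c 1.94 (SE 0.42). The UGT2 genes had Ugt2b1 1.78 (SE 0.41), Ugt2b34 1.37 (SE 0.24), Ugt2b36 1.3 (SE 0.27), Ugt2b37 2.44 (SE 0.62), Ugt2b38 5.46 (SE 1.43) and Ugt2b5 1.15 (SE 0.26). Both UGT3 genes differed, with Ugt3a1 2.75 (SE 0.59) and Ugt3a2 2.66 (SE 0.54). Their adjusted p-values ran from 0.0103 for Gstm1 to 0.0493 for Gstm7. Gstm5 and Gstm7 lie in the same cluster as Gstm1 to Gstm4 and have the opposite sign. Ugt2b38 rests on few counts. Groups of 3 libraries were too small to be searched gene by gene for single outlying libraries. The 2 libraries that stood apart were picked on principal components.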

How the results depend on the processing

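No paired analysis was possible because the groups compared share fewer than 2 replicate numbers. No single member changed direction with a call under any alternative. After depletion in N-Ras+AKT tumours the count of 25 members past the test was 15 without DEN+CCl4 depletion 6 and N-Ras+AKT depletion 17, and 13 to 28 without 1 library. In DEN+CCl4 tumours the count of 0 was 1 with no filter on low counts, 8 with DESeq2, 1 with limma-voom and 0 to 3 without 1 library. For the difference of effects 24 became 9 without the 2 libraries together and 12 to 29 without 1 library. Controls between models gave 15 (10 to 17 without 1 library) and depletion tumours 28 (24 to 26). Under the DESeq2 size factors and without rRNA genes, the counts of the 5 comparisons were unchanged. Fits without 1 library have fewer samples, and the cause of the lower counts was not tested. Depth limits Ugt1a8, Ugt1a10, Ugt2b38 and Mgst2, whose log2 fold changes rest on few counts, and Gsto2, which was too low to be tested. Gsta1 with Gsta2, Gstp1 with Gstp2 and the UGT1A genes share sequence, and their cluster sums are firmer than the single genes. The interval after tamoxifen, the tumour model and any batch cannot be told apart between the models.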

Other observations

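N-Ras+AKT control 10 had transferase levels nearest to the depletion libraries of that model, with 10319.8, 9259.9 and 10366 CPM summed over the GST genes in depletion libraries 6, 11 and 17 and 3299, 6895 and 4113 CPM in controls 3, 10 and 15. For UGT genes the sums were 4260.4, 3663 and 5243 CPM after depletion and 1509, 2641 and 1860.2 CPM in controls. The same library was the highest control for the pericentral hepatocyte markers, at 1333 CPM, against 609 and 901 CPM in the other 2 controls. This was not particular to that list. Control 10 was also highest for NRF2 targets (3784 against 2540 and 3052 CPM) and genes induced through CAR, PXR or AhR (4018 against 1467 and 2142 CPM). It was lowest for cholangiocyte markers (7144 against 9142 and 10337 CPM) and between the others for hepatocyte markers (70398 against 72307 and 65743 CPM). Its Prom1 level was 59.2 CPM, between those of the other controls. In DEN+CCl4 tumours the GST sum was 3719, 3956 and 3839.6 CPM after depletion and 6238, 4970.4 and 4581 CPM in controls, and the UGT sum was 2666, 2072 and 2302 CPM and 2627, 2289.5 and 2667 CPM.

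In N-Ras+AKT tumours, of 14 glutathione peroxidases and related enzymes 4 rose and 1 fell (median log2 fold change 0.24), and of 11 transferase relatives outside the naming rule 1 rose and 4 fell, including the chloride channel proteins Clic1 (log2 fold change -1.02, SE 0.17, adjusted p = 0.00384) and Clic4 (log2 fold change -0.51, SE 0.16, adjusted p = 0.038). Over all genes tested 12.8% rose and 10.8% fell. Of 11 genes known to be higher in male hepatocytes 6 rose and 0 fell (median log2 fold change 1.60). Of 12 known to be higher in female hepatocytes 6 rose and 0 fell (median 1.89). Over all genes 12.8% rose, and the median was -0.02. Cyp2b13 and Cyp2b9, among the female-biased genes that rose, are also in the list of genes induced through CAR, PXR or AhR. The summed level of the male-biased genes was 2127 to 3975 CPM after depletion and 1194 to 2781 CPM in controls, and that of the female-biased genes was 799 to 1428 CPM after depletion and 567 to 859 CPM in controls, and in both lists the ranges overlap. The 5 sex chromosome genes had a median of -0.13.

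Among Gsta1 and Gsta2 counts, Gsta2 took 66.1, 16.9 and 33.6% in the DEN+CCl4 depletion libraries, where both genes are low, and 16.0, 15.3 and 16.7% in their controls. In N-Ras+AKT tumours the share was 15.9, 17.2 and 14.3% after depletion and 18.6, 20.4 and 17.2% in controls.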
